A study of Drosophila melanogaster with 46 samples.

Results

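CP190 and CTCF were compared as chromatin immunoprecipitation sequencing (ChIP-seq) peaks from whole third-instar Drosophila melanogaster larvae. In what follows a pair is a CP190 peak and a CTCF peak that overlapped by at least 1 bp on chromosome 2L, 2R, 3L, 3R, 4, X or Y. The rule found 497 pairs, out of 2559 pairs of larval CP190 peaks with peaks of CTCF, Pita or Su(Hw). They held 497 of 4220 CP190 peaks and 483 of 808 CTCF peaks.

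The series has 46 samples in 15 groups. The larval CP190 samples are 4 of wild type and 14 of mutants. The mutants are labelled dCTCFdeltaCP alone (4 samples), with SuHwdelta114 (4), with PitadeltaCP1 (4) and with both (2), and the design text describes them as mutated in CP190-interacting domains. The CP190 list names the stage and no genotype, so it may hold peaks of any of these larvae. The CTCF list is named as wild type, for which the labels have 4 samples with the genotype dCTCFwt, precipitated through an HA tag on CTCF. The lists of larval Pita, larval Su(Hw) and adult CTCF, also used below, are named as wild type too. For each of these the labels have 2 samples. The antibody source is labelled rabbit for wild-type CP190 and rat for CP190 of all mutants. All groups share the strain label y1w1118, and the animals were taken whole, so a peak is a sum over all tissues. Each list has 1 value per peak, with no value per sample and no stated depth. Its columns also carry a summit and a −log10 p from each of 2 input lists of unknown samples, whose differences are the error given here.

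CTCF binds DNA through a cluster of C2H2 zinc fingers and is known in flies for the boundaries between the regulatory domains of the bithorax complex. CP190 carries a BTB domain, is brought to chromatin by several zinc-finger proteins, including CTCF, Pita and Su(Hw), and is frequent at promoters and insulators. The series title concerns the recruitment of CP190 by such proteins together. All positions are on dm6 and all levels are the authors' fold enrichment, for which the control is not stated.

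The summits of the paired peaks lay close together. The median distance between a CP190 summit and its CTCF summit was 20 bp (quartiles 9 and 53 bp), and 74.0% of the pairs lay within 50 bp (368 of 497, exact 95% interval 70.0% to 77.8%). There was little lean to either side along the chromosome, with a median signed offset of 1 bp. Between the 2 input lists the summits of the same paired peaks differed by a median of 8 bp for CP190 and 5 bp for CTCF, with 96.0% and 96.9% within 50 bp. The inputs are of unknown samples and the peaks were kept for agreement between them, so these values are no measure of the spread between separate experiments. Summits taken from the second input list of both proteins gave the same median of 20 bp.

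**Figure D1:**
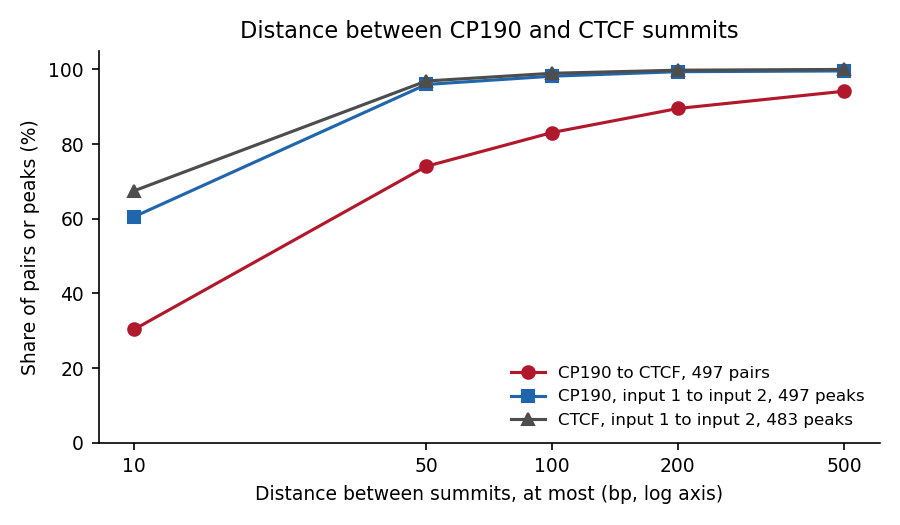
Share of CP190-CTCF pairs, and of the same peaks between their 2 input lists, whose summits lie within 10, 50, 100, 200 and 500 bp (log axis). Within 10 bp lie 30.4% of the pairs, against 60.6% of CP190 peaks and 67.5% of CTCF peaks compared between inputs.

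Most pairs were nested peaks, and peaks in pairs had higher median folds than the other peaks of their list. The median CP190 fold was 13.3 in pairs (quartiles 5.52 and 28.5) and 4.67 in CP190 peaks without CTCF (3.04 and 9.94). The median CTCF fold was 26.8 in pairs (5.14 and 73.2) and 3.29 in CTCF peaks without CP190 (2.49 and 6.41). Peaks in pairs were also wider, with a median of 1126 bp against 470 bp for CTCF and 853 bp against 706 bp for CP190. The pairing rule took no account of width. The overlap had a median of 700 bp (quartiles 483 and 913 bp), and in 396 pairs the shorter peak lay wholly inside the longer. Of the 483 CTCF peaks 470 had 1 CP190 partner, 12 had 2 and 1 had 3, and no CP190 peak overlapped more than 1 CTCF peak. At the edge of the rule, the pair with the shortest overlap (127 bp, near Gug) had a CP190 fold of 2.67 and a CTCF fold of 1.78. The closest CTCF peak left out lay 13 bp from a CP190 peak near CG31076, with a CP190 fold of 11.8 and a CTCF fold of 15.2, and summits 1477 bp apart.

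The summits of stronger peaks lay closer together. From the lowest to the highest quintile of CTCF fold the share within 50 bp was 64.0%, 59.6%, 72.7%, 85.9% and 88.0%. By CP190 fold the shares were 53.0% in the lowest quintile and 86.0% in the highest. The 29 pairs more than 500 bp apart had broad CTCF peaks, with a median width of 1698 bp, against 1234 bp for the 368 pairs within 50 bp. In 14 of the 29 the CTCF peak held several CP190 peaks. With each peak kept only with its mutually nearest partner, 483 pairs remained and 15 were over 500 bp apart.

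The pairs with the largest offset, among 163 pairs with both folds at or above their medians, were at tun (2788 bp), Gug (413 bp), RpL37-1 (317 bp), Septin1 (164 bp) and CG9018 (140 bp). Gug encodes an Atrophin corepressor, RpL37-1 a ribosomal protein and Septin1 a septin. At tun, on 2R, 1 CTCF peak of 150-fold overlapped 3 CP190 peaks. The CP190 summit that coincided with the CTCF summit (0 bp) had a fold of 46.9. Those at 1698 bp, beside an end of the Z-disc gene Zasp52, and at 2788 bp had folds of 2.65 and 55.5. Only this central CP190 peak shared the CTCF summit.

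The closeness of CP190 to CTCF was set beside its closeness to the other zinc-finger proteins. Leaving out CP190 peaks paired with both proteins, 75.1% of 337 CP190-CTCF pairs lay within 50 bp, against 71.3% of 707 CP190-Pita pairs. The odds ratio was 1.21 (95% interval 0.903 to 1.63, adjusted p = 0.227 by Fisher's exact test, which was two-sided and adjusted by Benjamini-Hochberg over 12 comparisons), although with a limit of 25 bp it passed (1.45, adjusted p = 0.00650). Against Su(Hw), 74.7% of 427 CP190-CTCF pairs lay within 50 bp and 82.2% of 1122 CP190-Su(Hw) pairs, an odds ratio of 0.641 (0.491 to 0.836, adjusted Fisher exact p = 0.00226). That difference did not pass in the high-q subset, which keeps the peaks whose −log10 q reaches their list's median (0.643, adjusted Fisher exact p = 0.118). All 5 lists were cut in this way, so a peak can lose its partner in that subset. The unit of each test is a peak, so a p-value here says nothing of how animals or libraries vary.

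Where Pita or Su(Hw) was also present, the CP190 summit was nearer to CTCF in some combinations and nearer to the other protein in a similar number. Among 160 combinations of CP190, CTCF and Pita peaks, the CP190 summit was nearer to the CTCF summit in 69, nearer to Pita in 87 and equally far in 4. In the 58 combinations whose CTCF and Pita summits were more than 50 bp apart the counts were 26 and 32. With Su(Hw), CP190 was nearer to CTCF in 36 of 73 combinations and nearer to Su(Hw) in 35. These counts carry no test.

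The rank correlation between CP190 and CTCF enrichment was higher at sites without Pita or Su(Hw) than at sites with Pita. Over all 497 pairs Spearman's rho between the folds was 0.38 and Pearson's r of log2 fold 0.33. Among the 272 pairs whose CTCF peak overlapped neither Pita nor Su(Hw), rho was 0.67 (r = 0.61). Among the 167 with Pita it was 0.09 (r = 0.06), and among the 58 with Su(Hw) and no Pita 0.49 (r = 0.48). Between the 2 input lists rho of −log10 p was 0.998 for the paired CP190 peaks and 0.999 for the paired CTCF peaks, in lists kept for agreement between the inputs. Between these larval folds rho was 0.57 for the 376 pairs whose CTCF peak was also in the adult list and −0.09 for the 121 others. Among pairs without Pita or Su(Hw) it was 0.72 with an adult peak (227 pairs) and −0.16 without one (45 pairs). Of the 100 pairs with the lowest CTCF folds (1.78 to 3.95) 12 had an adult peak, against 99 of the 100 with the highest. Pairs with and without an adult peak thus differ in CTCF range, which these values of rho do not take into account. The 12 pairs with both Pita and Su(Hw) had a rho of 0.58. These points share libraries and peak calling, and no p is given.

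**Figure D2:**
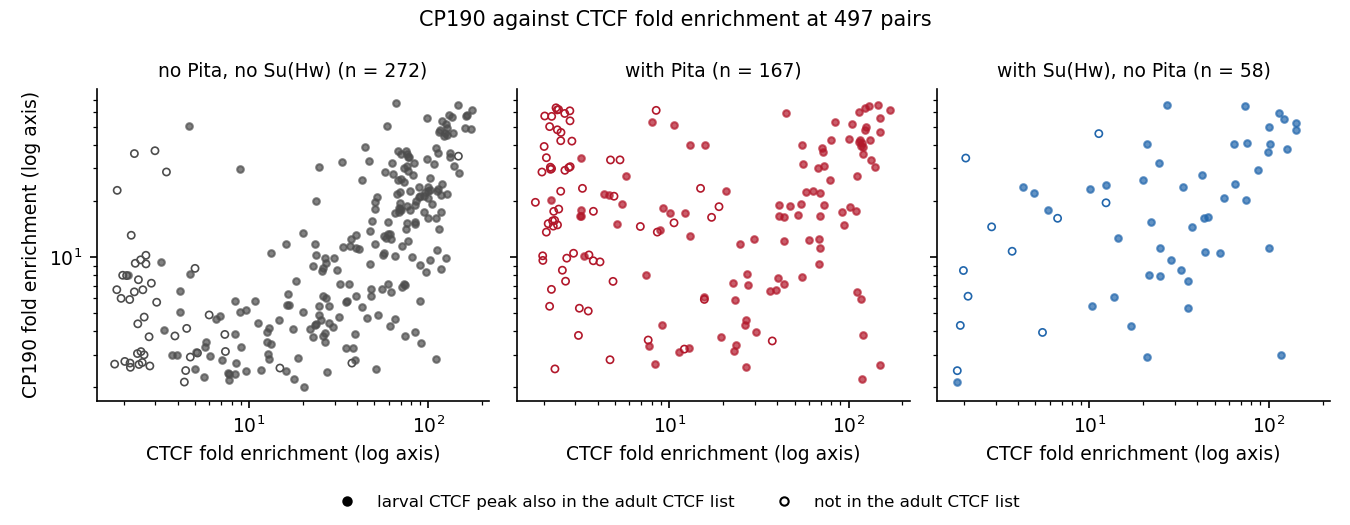
CP190 fold enrichment against CTCF fold enrichment (both log axes) for 272 pairs without Pita or Su(Hw), 167 with Pita and 58 with Su(Hw) only; filled points are CTCF peaks also in the adult list. Without Pita or Su(Hw) the folds tend to rise together (rho 0.67). With Pita a column of CTCF peaks near 2-fold spans the whole range of CP190 (rho 0.09).

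Pairs with Pita had a higher median of CP190 and a lower median of CTCF than pairs without either protein, over a wide range of CTCF. The 155 pairs with Pita and no Su(Hw) had a median CP190 fold of 17.6 (quartiles 8.05 and 34.1) and a median CTCF fold of 12.1 (2.80 and 68.2). The 272 pairs without either protein had 9.22 for CP190 (4.31 and 22.0) and 39.0 for CTCF (8.93 and 77.6). The 12 pairs with both Pita and Su(Hw) had the highest CP190 median, 28.3, with 32.1 for CTCF. Where CTCF and Pita peaks met at a CP190 peak, CP190 fold went more with Pita fold (rho 0.30 over 160 combinations) than with CTCF fold (rho 0.10), and rho between CTCF and Pita folds was −0.30. In the 58 combinations with CTCF and Pita summits more than 50 bp apart, these 3 values were 0.26, 0.09 and −0.11.

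The relation between the folds was not even along the range. From the lowest to the highest quintile of CTCF fold, the median CP190 fold was 10.2, 5.48, 7.46, 18.4 and 33.4. The lowest quintile, with CTCF folds of 1.78 to 3.95, thus stood above the next one. Of its 100 pairs 54 had a Pita peak, and these had a median CP190 fold of 18.9 (quartiles 10.3 and 37.9), against 6.09 (3.01 and 9.25) in the 46 without Pita. In the highest quintile, with CTCF folds of 84.8 to 174, CP190 medians were 40.4 with Pita (30 pairs) and 28.9 without (70 pairs). The quintiles were read after the values were seen, so they carry no test.

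The strongest CP190 pairs included both strong and weak CTCF peaks. The 10 pairs with the highest CP190 fold ranged from 61.6-fold to 66.9-fold. Of these, 7 had CTCF folds between 27.2 and 147, near CG10232, within Svil, near Eglp2 and CG14903, within Syn beside an end of Timp, within chas and in the region nearest to Act88F, the flight muscle actin gene. The other 3 had CTCF folds of only 2.34, within nemy, 2.41, nearest to bap, a homeobox gene of the visceral mesoderm, and 2.37, beside sfl and MCU, the mitochondrial calcium uniporter gene. All 3 had a Pita peak and none was in the adult CTCF list. Of the 100 pairs with the lowest CTCF folds, 54 had a Pita peak and 12 were in the adult list. Of the 7 with higher CTCF folds, the pairs at Svil, chas and Act88F had a Pita peak too. Those at Eglp2, Timp, chas and Act88F had a Su(Hw) peak.

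The pairs with the highest CTCF fold nearly all had strong CP190. At the 8 CTCF peaks behind the 10 such pairs, CTCF folds ran from 149 to 174. The pair beside CR31958 had a CP190 fold of 61.5 and a CTCF fold of 174, and the pair at CG33557 and the nuclease gene Dna2 48.7 and 172. Beside Rubicon, a regulator of autophagy, they were 61.5 and 170, and beside the kinase gene Tak1, with coinciding summits, 57.3 and 162. The remaining ones were a site nearest to asRNA:CR43299 (57.6 and 164), a site nearest to CG44439 (49.0 and 160), the 3 pairs at tun and a site beside CG6345 (28.4 and 149).

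The largest disagreements in rank had different shapes. In the 5 pairs in which CTCF ranked highest above CP190, CP190 folds were 2.23 to 3.82 and CTCF folds 110 to 150, and the summits lay 930 to 2574 bp apart. They were at Zasp52 and tun, at prage and the RNA-editing gene Adar, in the tyrosine phosphatase gene Ptp61F beside CG9166, at Chsy, which encodes a chondroitin synthase, and at CG30026 and Smyd4-3. In 4 of the 5, all but the CG9166 site, the same CTCF peak also overlapped a stronger CP190 peak nearer its summit, with CP190 folds of 46.9 at tun (0 bp), 41.1 at prage (23 bp), 38.6 at Chsy (0 bp) and 35.9 at the CG30026 peak (0 bp). There the difference in rank belongs to a further, weaker CP190 peak of a CTCF peak that had a strong one. In the 5 pairs of the opposite kind, CP190 folds were 56.8 to 63.2, CTCF folds 2.02 to 2.41, and summits lay 1 to 31 bp apart. They were beside Men-b, a malic enzyme gene, and cindr, and at the nemy, sfl and bap sites. All 5 had a Pita peak and none an adult CTCF peak. Among the 100 pairs in the lowest quintile of CTCF fold, 54 had a Pita peak and 12 an adult CTCF peak. Of the pairs in which CTCF ranked higher, those at tun, prage and CG30026 had a Pita peak too.

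The question of which CTCF peaks carry CP190 was read along the strength of CTCF. Of all 808 CTCF peaks 59.8% were in a pair, and of all 4220 CP190 peaks 11.8%. In deciles of CTCF fold from the highest to the lowest, the share with CP190 was 71.6%, 96.3%, 97.5%, 86.3%, 67.9%, 42.0%, 32.5%, 23.5%, 40.7% and 39.5%. It was thus lowest in the eighth decile, with folds of 2.63 to 3.21, and not among the weakest peaks. In the top decile, where CTCF fold was at least 111, 23 peaks had no CP190 peak, and their summits lay 3.76 to 58.5 kb from the nearest CP190 summit. Of these 23, 12 overlapped a Su(Hw) peak (52.2%), against 8 of the 58 with CP190 in the same decile (13.8%). The median −log10 irreproducible discovery rate (IDR, higher is more reproducible) of CTCF peaks was 2.56 in the top decile, 2.71 in the fifth and 2.46 in the lowest. The strongest CP190 peak of the list had 2.004, where the lowest value listed was 2.001. How far this limit removed strong CP190 peaks was not tested.

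**Figure D3:**
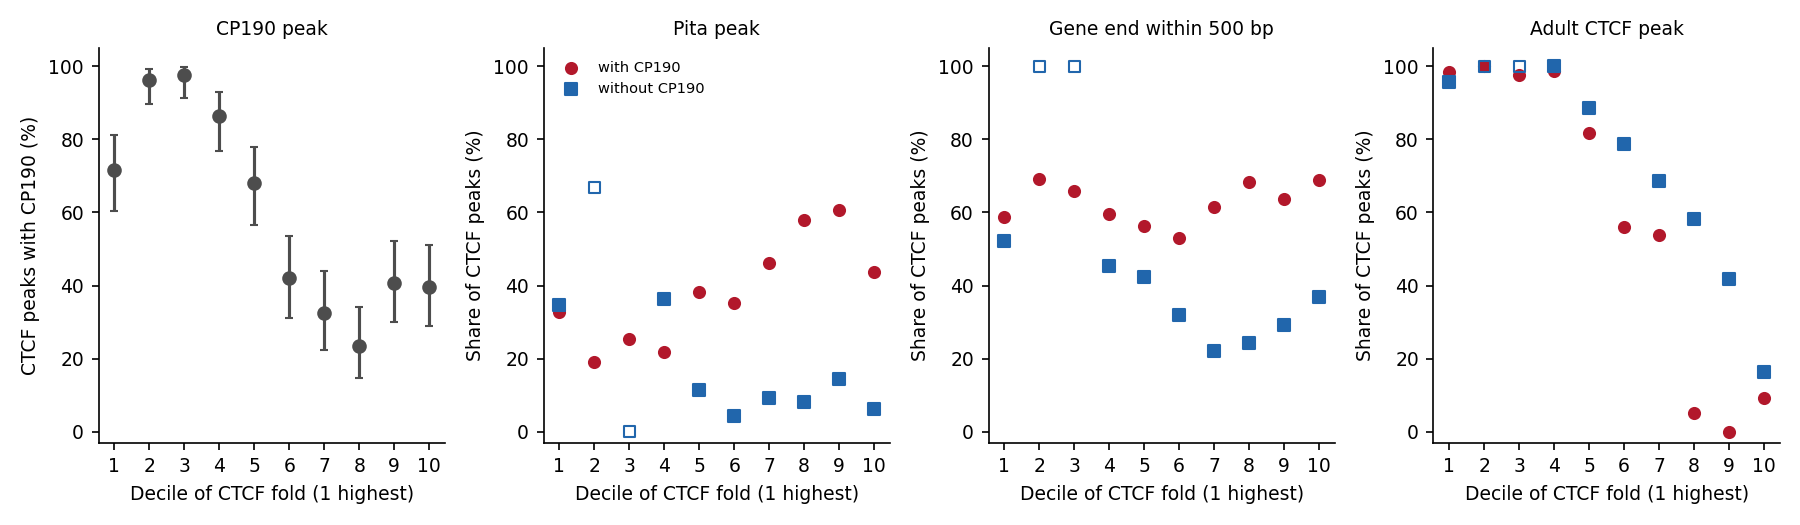
Shares of larval CTCF peaks by decile of CTCF fold (1 highest). The first panel gives the share with CP190 with exact 95% intervals, and the others the shares with a Pita peak, a gene end within 500 bp and an adult CTCF peak for peaks with CP190 (red circles) and without (blue squares; open where under 10 peaks). In the lower deciles peaks with CP190 had Pita and gene ends more often and adult CTCF less often.

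Pita was more frequent at CTCF peaks that carried CP190. A Pita peak was present at 32.9% of CTCF peaks with CP190 (159 of 483, exact 95% interval 28.7% to 37.3%) and at 12.0% of those without (39 of 325), an odds ratio of 3.60 (2.45 to 5.29, adjusted Fisher exact p = 1.69e-11). The shares differed among weak CTCF peaks and were alike among strong ones, a split that was not tested. In the 404 weaker CTCF peaks, below 8-fold, Pita was at 47.9% of 144 with CP190 and 8.46% of 260 without, and in the 404 stronger ones at 26.5% of 339 and 26.2% of 65. In the high-q subset the difference did not pass (1.33, adjusted Fisher exact p = 0.588).

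Su(Hw) showed no such difference past the threshold. The IDR reached 0.04999 in the Pita list and 0.00990 in the Su(Hw) list. Values for the 2 proteins, here and elsewhere, thus rest on unlike limits. It was at 14.3% of CTCF peaks with CP190 and 10.8% of those without, an odds ratio of 1.38 (0.895 to 2.13, adjusted Fisher exact p = 0.197). With pairs and partners defined by summits within 200 bp it passed (1.75, adjusted Fisher exact p = 0.0350). Compared within CTCF fold quartiles the ratio was 0.879 and in the high-q subset 0.941, both with intervals that held 1.

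Seen from the CP190 list, the partners differed. Among CP190 peaks with CTCF 32.2% had a Pita peak (160 of 497), against 18.9% of those without CTCF (704 of 3723), an odds ratio of 2.04 (1.66 to 2.50, adjusted Fisher exact p = 1.55e-10). Within quartiles of CP190 fold the ratio was 1.14, with an interval that held 1 (0.915 to 1.42, Mantel-Haenszel), and in the high-q subset it was 0.711 (0.516 to 0.981, adjusted Fisher exact p = 0.118), which did not pass. Su(Hw) was at 14.1% of CP190 peaks with CTCF (70 of 497) and 29.8% of those without (1110 of 3723). The odds ratio was 0.386 (0.297 to 0.502, adjusted Fisher exact p = 6.08e-14). Compared within CP190 fold quartiles it was 0.250.

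Larval CTCF peaks with CP190 were in the adult CTCF list in 74.9% of cases (362 of 483, 70.8% to 78.8%), against 61.2% of those without CP190 (199 of 325). The odds ratio was 1.89 (1.40 to 2.57, adjusted Fisher exact p = 9.76e-05), and it turned round when peaks of like strength were compared. Within quartiles of CTCF fold it was 0.328 (Mantel-Haenszel 95% interval 0.205 to 0.524), and in the high-q subset 3.83. In that subset the CP190 and adult lists were cut as well, so partners could be lost from both. The shares there were 83.9% of 279 CTCF peaks with CP190 and 57.6% of 125 without. With the lists uncut, among the 404 weaker peaks 25.7% of 144 with CP190 had an adult partner and 53.1% of 260 without. Among the 404 stronger peaks the shares were 95.9% of 339 and 93.8% of 65. In the ninth decile 0 of 33 CTCF peaks with CP190 were in the adult list, and 20 of 48 without CP190.

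CTCF peaks with CP190 lay more often at gene ends, and those without more often inside genes. A gene end was within 500 bp of the CTCF summit in 62.5% of peaks with CP190 (302 of 483, 58.0% to 66.9%) and 32.9% of those without (107 of 325). The odds ratio was 3.40 (2.53 to 4.57, adjusted Fisher exact p = 1.95e-15). The median distance to a gene end was 268 bp with CP190 and 1531 bp without. The difference did not pass in the high-q subset (1.43, adjusted Fisher exact p = 0.246). A CTCF summit lay within the span of a gene in 38.1% of peaks with CP190 and 60.0% without, an odds ratio of 0.410 (0.308 to 0.547, adjusted Fisher exact p = 3.17e-09). Compared within CTCF fold quartiles it was 0.669. Since the gene table gives no strand, starts and ends of genes were not told apart.

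Among CP190 peaks the difference ran the other way. A gene end was within 500 bp of the summit in 64.8% of CP190 peaks with CTCF (322 of 497) and 71.7% of those without (2668 of 3723), an odds ratio of 0.728 (0.597 to 0.886, adjusted Fisher exact p = 0.00286). It did not pass in the high-q subset (0.875, adjusted p = 0.583) or with a distance of 1000 bp (0.798, adjusted p = 0.0536) by the same Fisher exact test. At least 2 genes had an end within 500 bp at 30.8% of the pairs (153 of 497), against 45.3% of CP190 peaks without CTCF and 11.1% of CTCF peaks without CP190. By partner, a gene end was near in 68.8% of 272 pairs without Pita or Su(Hw), 64.5% of 155 with Pita and 50.0% of 58 with Su(Hw).

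**Figure D4:**
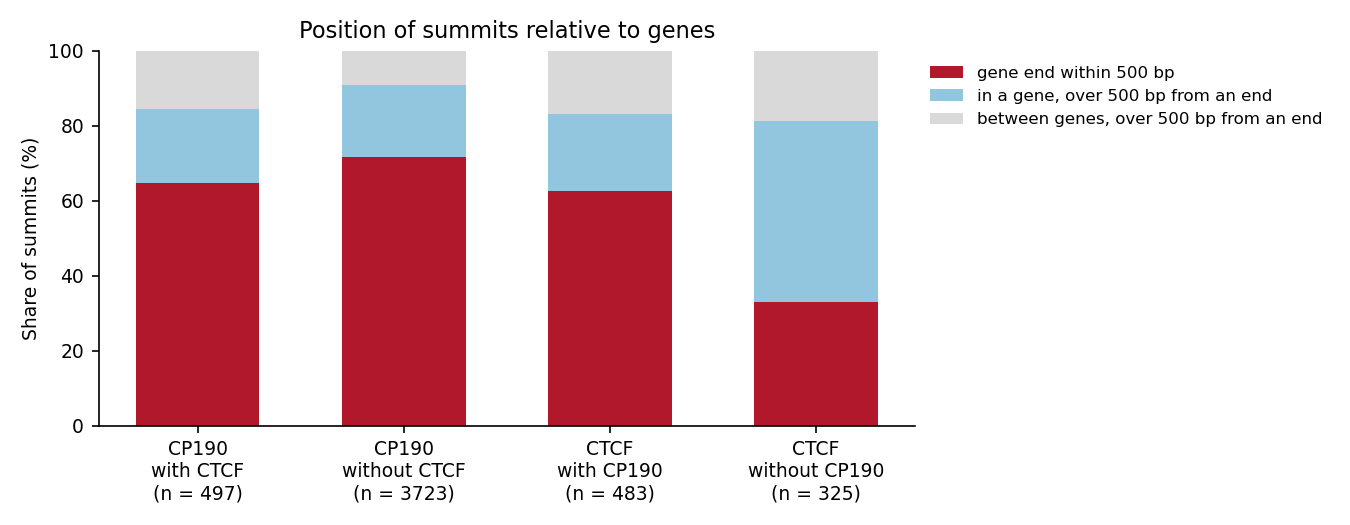
Share of summits with a gene end within 500 bp, inside a gene but farther from its ends, and between genes but farther from an end, for CP190 peaks with and without CTCF and CTCF peaks with and without CP190. Red bars reach 64.8% and 71.7% for CP190 and 62.5% and 32.9% for CTCF.

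The X chromosome held fewer of the paired than of the unpaired CTCF peaks. It had 16.8% of CTCF peaks with CP190 (81 of 483) and 25.2% of those without (82 of 325), an odds ratio of 0.597 (0.423 to 0.844, adjusted Fisher exact p = 0.00553). In the high-q subset the ratio was 1.02 (adjusted Fisher exact p = 1). Of the CTCF peaks of X 49.7% were in a pair, against 58.0% to 64.9% on the 4 large autosome arms and 6 of 8 peaks on chromosome 4. For CP190 peaks the share on X was 16.7% with CTCF and 17.8% without (odds ratio 0.924, 0.719 to 1.19, adjusted Fisher exact p = 0.574).

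The pairs were mostly isolated. Neighbouring pairs lay a median of 137 kb apart (quartiles 47.2 and 325 kb, largest gap 1646 kb), and 42 of 491 gaps (8.55%) were at most 10 kb. Joined at that distance, 418 pairs stood alone, 33 groups held 2 pairs and 4 groups held 3 or more. The group of 4, at velo, which encodes a SUMO protease, and dikar, had CP190 folds of only 2.20 to 2.88, with CTCF folds of 7.71 to 51.0. The tun group has been described above. A group inside Eip75B, an ecdysone-induced nuclear receptor gene, had CP190 folds of 49.2, 9.20 and 11.7 and CTCF folds of 127, 2.66 and 16.1. The last, at CG9030 and the potassium channel gene eag, had CP190 folds of 13.1, 4.27 and 10.7 and CTCF folds of 39.3, 17.2 and 3.71.

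Some genes held several pairs within their span, placed by the midpoint between the summits. Eip75B, with a span of 114 kb, held 4 pairs, tun 3 at 1 CTCF peak, and Flo2, a flotillin gene, 3 with CP190 folds of 3.37 to 5.32 and CTCF folds of 3.15 to 23.6. Svil, the supervillin gene, held 2 pairs, with CP190 folds of 65.5 and 38.7 and CTCF folds of 146 and 71.1. CG43693 also held 2, with CP190 folds of 6.02 and 47.9 and CTCF folds of 26.9 and 143.

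The bithorax complex, the classical setting of fly CTCF, showed pairs with little CP190. Across the 316 kb from the outer end of Ubx to that of Abd-B lay 12 CTCF peaks and 7 CP190 peaks, which made 5 pairs. From the Ubx side, the pairs had CP190 folds of 3.76, 2.70, 10.3, 2.28 and 6.56 and CTCF folds of 25.7, 37.5, 23.7, 5.60 and 36.4. The first lay in lncRNA:bxd, the third in lncRNA:iab8 and the fourth and the fifth in Abd-B. All 5 CP190 folds were below the median of 13.3 for CP190 peaks in pairs. Both strong CP190 peaks of the complex, 57.0-fold and 54.5-fold, overlapped Pita and not CTCF. The highest CTCF peak, 118-fold, overlapped Pita and Su(Hw) and had no peak in the CP190 list. A CP190 peak removed by the IDR limit of that list would not be seen here, and this was not tested. No end of Ubx, abd-A or Abd-B lay within 500 bp of a pair.

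**Figure D5:**
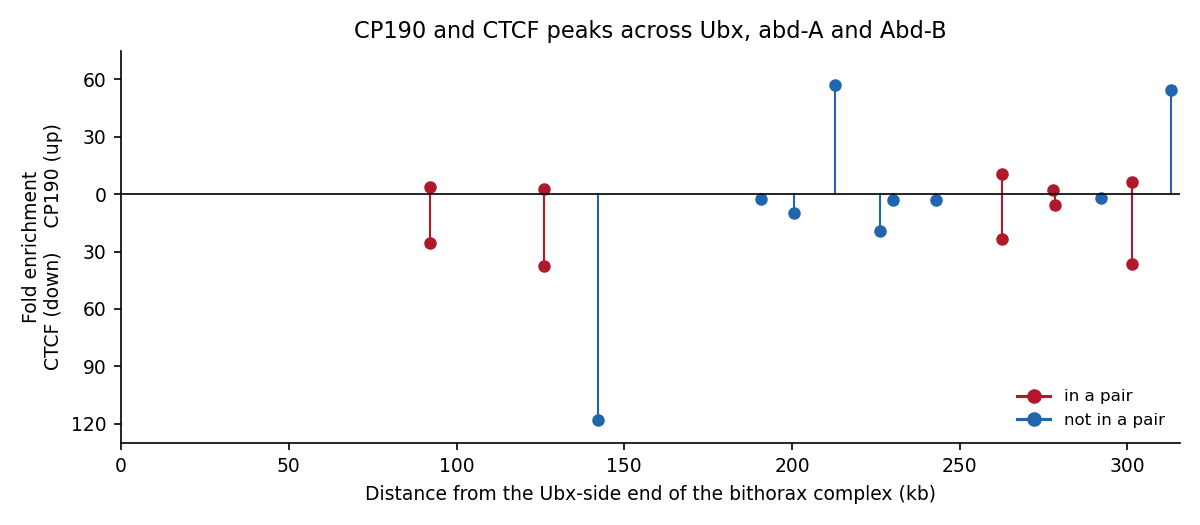
Fold enrichment of the 7 CP190 peaks (upwards) and 12 CTCF peaks (downwards) across the bithorax complex, against the distance in kb from its Ubx-side end; red peaks are in a pair and blue ones are not. The 5 pairs have CP190 folds of 2.28 to 10.3, below both unpaired CP190 peaks at 57.0 and 54.5.

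Genes at pairs are those with either end within 500 bp of the stretch covered by both peaks of a pair. They numbered 659, or 3.7% of 17807 genes, and 585 were protein-coding, or 4.19% of 13946. For comparison, 35.7% of protein-coding genes had an end within 500 bp of a CP190 peak and 5.19% of a CTCF peak. The 19 gene lists below were described by their counts alone.

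Among cytoplasmic ribosomal protein genes 6 of 92 (6.52%) were at a pair, and 73 of 92 were near a CP190 peak. RpL37-1 had a CP190 fold of 35.5 and a CTCF fold of 75.9, RpS7 18.7 and 102, and RpS26 12.6 and 68.6. Of 73 mitochondrial ribosomal protein genes 1 was at a pair, mRpS18C, with a CP190 fold of 7.16 and a CTCF fold of 73.2. None of the 48 proteasome genes or 24 Mediator genes was at a pair, and 25 and 16 of them were near a CP190 peak. Against 4.19% of all protein-coding genes at a pair, lists of this size with none are not set apart.

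Among chromatin genes, 2 of 19 Polycomb group genes were at a pair. Pc itself, which encodes the chromodomain protein that reads methylated histone H3, had a CP190 fold of 30.3 and a CTCF fold of only 2.17, with Pita present and no adult CTCF peak. Asx, which encodes a subunit of a histone deubiquitinase, had 6.69 and 1.83. None of 14 insulator and architectural protein genes, 14 trithorax group genes and 16 cohesin and condensin genes was at a pair, while 8, 8 and 10 of them were near a CP190 peak. For lists this short a count of 0 is close to the 4.19% of all protein-coding genes.

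Among developmental regulators, counted first by their ends, the mesoderm, midline and muscle list had 2 of 16 at a pair with all 4 proteins. The midline regulator sim had a CP190 fold of 59.5 and a CTCF fold of 44.8, and the forkhead gene bin 36.8 and 72.2. Of 13 ecdysone response genes ftz-f1, a nuclear receptor gene, had an end at a pair, with 11.7 and 23.2. Of 16 Notch pathway genes mib1, a ubiquitin ligase gene, did, with 4.05 and 3.34. None of 19 pair-rule and segment polarity genes, of 9 Antennapedia complex genes or of 10 nicotinic receptor genes did, and of 15 voltage-gated channel genes eag did, with 4.27 and 17.2. These counts are too small to set beside the 4.19% of protein-coding genes.

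Counted by their spans, more genes of the ecdysone response, Antennapedia complex, bithorax and voltage-gated channel lists held a pair. A pair lay within the span of 1.2% of all protein-coding genes (167 of 13946), a share that counts short and long genes alike. Of the 13 ecdysone response genes 4 held one. They were EcR, the ecdysone receptor gene, with a CP190 fold of 13.1 and a CTCF fold of 56.3, Eip75B, Hr4 and Eip63E. Of the 9 Antennapedia complex genes 2 did. Antp held pairs with CP190 folds of 28.6 and 3.72 and CTCF folds of 3.46 and 19.5, and pb, another homeobox gene, held 1 with 16.6 and 3.22. Of the voltage-gated channel list 2 of 15 did, Ca-alpha1T and eag. Of the 3 bithorax genes 1 did, Abd-B. The mesoderm, midline and muscle list kept its count of 2 of 16, now with Mef2 and twi. Some other lists had fewer by span, with 1 of 92 cytoplasmic ribosomal protein genes against 6 by ends, and 0 of 19 Polycomb group genes against 2. The Notch list again had 1 of 16, mib1. The pair-rule and segment polarity list and the nicotinic receptor list again had none. Genes of these lists were named by span after their values were seen, and span length was not taken into account.

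Cuticle protein, chemoreceptor and tRNA genes were rare at pairs, as they were near peaks of either protein. Of 117 cuticle protein genes 1 was at a pair, Cpr76Ba (CP190 11.05 and CTCF 41.3), and of 179 chemoreceptor genes 2 were, the gustatory receptor genes Gr89a (29.0 and 77.0) and Gr98d (5.83 and 8.36). Of 295 tRNA genes 2 were, tRNA:Thr-AGT-1-4 (54.0 and 120) and tRNA:Asn-GTT-1-1 (13.1 and 56.3). The shares, 0.855%, 1.12% and 0.678%, were all under the 3.7% of all genes, and were not tested.

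The 5 strongest unpaired peaks of each protein had summits at least 3.83 kb from any summit of the other. The 5 strongest CTCF peaks without CP190, of 168-fold to 184-fold, were near nAChRalpha5, Wdr62 and the Notch gene N, in Antp and near CG16721, with the nearest CP190 summit 3.83 to 28.1 kb away. All but the nAChRalpha5 peak were in the adult CTCF list. Whether the IDR limit of the CP190 list removed a CP190 peak at these sites was not tested. The 5 strongest CP190 peaks without CTCF, of 63.8-fold to 70.2-fold, were near Sxl, in UQCR-Q, dysc and CG44837 and near Pits, with the nearest CTCF summit 4.56 to 65.0 kb away. Each of these 5 overlapped a Pita or a Su(Hw) peak, at Pits both. Of all 3723 CP190 peaks without CTCF, 18.9% had a Pita peak and 29.8% a Su(Hw) peak.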

How the data were processed

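The files used are 5 of the authors' deposited peak lists, for larval CP190, CTCF, Pita and Su(Hw) and adult CTCF, each peak with 20 columns, arranged as IDR output from 2 input lists. Per the submitters' processing notes dm6 was the build, and MACS2, Bowtie2, cutadapt, Picard, deepTools and bedtools are named; their roles and versions are not given in the sources used here. The values that the authors deposited comprise fold enrichment (a linear ratio, control not stated), −log10 p and −log10 q per peak, −log10 p and a summit per input list, and a global IDR on a −log10 scale, treated here as a score. The highest IDR among larval peaks was 0.00998 for CP190, 0.00985 for CTCF, 0.00990 for Su(Hw) and 0.04999 for Pita. The Pita list was thus kept to a looser limit. The deposited summit was checked and is that of the first input list. Depth per sample is unknown, and intervals cover counting error only.

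Peaks were paired by overlap of at least 1 bp, and gene spans came from a RefSeq table (Release 6 plus ISO1 MT, the assembly of dm6) that has no strand. Shares have exact Clopper-Pearson intervals and odds ratios Woolf 95% intervals. The 12 two-sided Fisher exact tests were adjusted together by Benjamini-Hochberg, with a threshold of 0.05, in scipy 1.17.1. Mantel-Haenszel tests used statsmodels 0.14.6. The pairing and tests were checked on simulated data. Alternatives were another overlap rule, summits within 200 bp, a high-q subset, autosome arms, mutually nearest pairs, quartiles of fold, and other gene and offset distances. Named pairs and genes are the 10 highest by each protein, the 5 most discordant each way, the 5 largest offsets with both folds at or above their medians, the 5 strongest unpaired peaks per protein, groups of at least 3 pairs, the 5 genes holding most pairs, and up to 4 members per gene list, of which 1 is not reported here. The members, lists and tests were chosen with earlier results of these data known; the bithorax span, deciles, quintiles and the split of CTCF peaks at their median were chosen after seeing values. The planned search for sequence words was not run, as no sequence was used here. Names in the gene lists that the table did not match were left out.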

Additional observations from a re-analysis of the deposited data

Results flagged for a closer look

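Outside the chromosomes compared, on unplaced or random sequences, the lists held 6 CP190 peaks and 6 CTCF peaks, and 4 of these CP190 peaks overlapped a CTCF peak. These peaks are given because no comparison uses those sequences. With so few peaks nothing further is read from the overlap.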

How the results depend on the processing

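No paired analysis was possible because the peak lists carry no replicate numbers, and for the same reason no replicate could be left out. Of the alternative values 73 kept their direction and side of the threshold, or moved less than their interval. Within quartiles of fold the odds ratio turned to 0.328 for adult CTCF and to 0.879 for Su(Hw) at CTCF peaks, and fell short for Pita at CP190 peaks (1.14). In the high-q subset the ratio turned to 0.941 for Su(Hw) at CTCF peaks, 1.02 for X among CTCF and 1.05 among CP190 peaks, and 0.711 for Pita at CP190 peaks. There it also fell short for gene ends at CTCF (1.43) and CP190 peaks (0.875), Pita at CTCF peaks (1.33) and offsets against Su(Hw) (0.643). Fewer peaks were tested in that subset, and the partner lists were cut as well. The peaks of the subset gave 285 pairs, a median offset of 15 bp, a rank correlation of 0.53 and a spacing of 286 kb. A gene distance of 1000 bp gave 0.798 for gene ends at CP190 peaks. Passing only under the alternative were Su(Hw) at CTCF peaks with summits within 200 bp (1.75), where the median offset was 17 bp, and offsets against Pita at 25 bp (1.45). The rank correlation was 0.67 without Pita and Su(Hw), 0.087 with Pita and 0.24 without the top decile of CTCF peaks, settings chosen after seeing the data. The cause of the other changes was not tested.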
